A study of Drosophila melanogaster and Drosophila yakuba and Drosophila virilis with 31 samples.

Results

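Blastoderm embryos of D. yakuba (yak) were compared with blastoderm embryos of D. virilis (vir), gene by gene, over the genes that have 1 ortholog in each species of the series. The yak group held 6 single embryos of the strain Tai18E2, 3 female and 3 male. The vir group held 5 single embryos of the strain V46, 3 female and 2 male, since the first vir male had been removed from the study for low quality. All 11 embryos were sexed by PCR and were taken after the cells of the blastoderm had closed and before gastrulation. They were chosen by species and stage from 31 libraries of the series, which also holds embryos of D. melanogaster (mel) and D. pseudoobscura (pse) and unfertilized eggs of all 4 species. Each species was 1 strain, so species and strain cannot be told apart. Stage was judged from the form of the embryo, so species and exact time within the stage cannot be told apart either. The gene models also differed between the species, and reads of each species were mapped to its own models, so a difference in transcript level and a difference in annotation cannot be told apart here.

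The late blastoderm is the time at which a Drosophila embryo passes from maternal to zygotic control. The mother loads the egg with messenger RNA, part of which is destroyed in the first hours of development while the genome of the embryo is switched on. Maternal gradients then set off a cascade of gap, pair-rule and segment polarity genes along the head to tail axis, and Toll and BMP signalling divide the belly to back axis into mesoderm, neurectoderm and dorsal ectoderm. Membranes grow in between the nuclei during the same interval, and pole cells at the posterior end take up the germ plasm.

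Values were FPKM scaled by the authors to the 75th percentile of autosomal genes. FPKM are fragments scaled to the length of the transcript and to the size of the library, so that levels of different genes can be set side by side. Depth is unknown, since no counts of reads were given, and counting error has no interval here. The correlation of values between embryos (Spearman, across genes, which are not independent) was 0.97 to 0.99 in 15 pairs of yak embryos and in 10 pairs of vir embryos, and 0.71 to 0.74 in 30 pairs of a yak with a vir embryo. Between 562 and 788 genes were under 0.1 FPKM in a yak embryo, against 429 to 470 in a vir embryo. Sxl, the female switch gene of sex determination, fitted the labels, with 428 to 604 FPKM in yak females and 83.8 to 101 FPKM in yak males, and with 379 to 453 FPKM in vir females and 54.3 to 73.9 FPKM in vir males. Somatic blastoderm markers summed to 715 to 896 FPKM in yak embryos and to 634 to 763 FPKM in vir embryos (10 of 12 markers in the table, 2 of them called higher in yak and 1 higher in vir). The 3 pole cell markers in the table (pgc, nos and osk) summed to 2.29 to 58.4 FPKM in yak embryos and to 12.1 to 34.7 FPKM in vir embryos, and 1 of them, osk, was called lower in yak. The only follicle cell marker in the table, Cp18, stayed at or under 2.80 FPKM in yak and 1.40 FPKM in vir. The yolk protein gene Yp3 had 0.207 to 0.399 FPKM in yak and 1.42 to 6.66 FPKM in vir and was called lower in yak. The 2 of 7 markers of later cells in the table were called in opposite directions. The neuronal gene elav had 9.48 to 38.8 FPKM in yak and 67.7 to 96.2 FPKM in vir (difference -1.66), and srp, a gene of blood and fat body, had 124 to 173 FPKM in yak and 45.2 to 66.3 FPKM in vir (difference 1.49). The part of these cell types in the results was not tested.

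In the third vir female, 32 genes were more than 2-fold below every other vir embryo, against 0 to 4 genes in the others. They included the dorsal genes zen and pnr: zen had 0.981 FPKM in this embryo and 44.4 to 65.5 FPKM in the other vir embryos, and pnr had 0.0421 FPKM against 3.70 to 7.12 FPKM. The Dpp antagonist gene sog was higher there, with 161 FPKM against 55.4 to 86.7 FPKM, while the mesoderm genes sna and twi had 90.6 and 138 FPKM against 92.2 to 125 and 109.5 to 145 FPKM. Results for the dorsoventral axis are given with and without this embryo. In the third yak male, 32 genes were more than 2-fold below every other yak embryo, and 0 to 15 genes in the other yak embryos. The ribosomal protein gene RpL26 was among them.

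A gene entered the test when its mean was above 1 FPKM in at least 1 of the 4 groups of species and sex, which held for 5395 of 5993 genes. Differences are yak minus vir in log2(FPKM + 1), with sex as a covariate, in limma with Benjamini-Hochberg adjustment, and are given with their standard error. This scale understates the change of genes with low values. A gene is called when its adjusted p is under 0.05 and its difference is at least 1, which is 2-fold. The p-values measure the spread between single embryos of 1 strain. Of the tested genes 1205 (22.3%) were higher in yak and 1476 (27.4%) were lower in yak, 2681 in all (49.7%). With the quantile normalization the larger side turned, to 1305 higher and 1280 lower. The p-values test a difference from 0. In a test against a 2-fold difference 852 genes were higher and 1086 lower in yak. By the adjusted p alone 2135 (39.6%) were higher and 2362 (43.8%) lower, 4497 in all (83.4%). In 2606 genes (48.3%) the gene was called and no yak embryo overlapped a vir embryo. Over all 5395 tested genes, called or not, 3722 were without overlap. The median difference over all tested genes was -0.08 and the median size was 1.00, so that a 2-fold difference was the middle of the range. At least 8-fold differences were called in 162 genes higher in yak and in 225 genes lower in yak, and at least 32-fold differences in 31 and 33.

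Among called genes without overlap and expressed in all 4 groups, the largest excesses in yak included genes for ion transport and a ribosomal protein. Yak values are given below as the lowest, the median and the highest of 6 embryos, and vir values as females 1, 2 and 3 and males 2 and 3. CG1774 (mel position 3R:27418465-27420449, release 5 of the mel genome, as for all positions here) had 317, 394 and 462 FPKM in yak embryos, against 1.23, 1.24, 1.13, 1.27 and 1.10 FPKM in vir embryos. The yak embryos lay far above the vir embryos, and the difference was 7.48 ± 0.10 (adjusted p = 4.69e-14). Means of this gene were 0.890 FPKM in mel and 0.451 FPKM in pse embryos, so that it was high in yak alone of the 4 species. The zinc transporter gene CG6672 (ZnT86D, 3R:7038029-7040239) had 486, 536 and 663 FPKM in yak embryos, against 3.74, 2.82, 3.56, 3.68 and 3.44 FPKM in vir embryos. The difference was 6.94 ± 0.10 (adjusted p = 4.69e-14), with 11.7 FPKM in mel and 7.07 FPKM in pse. CG15098 (2R:14720876-14722276) had 522, 655 and 768 FPKM in yak embryos, against 4.596, 2.96, 2.66, 4.45 and 5.83 FPKM in vir embryos. Here vir was the species that stood apart, with 405 FPKM in mel and 549.6 FPKM in pse, and the difference was 7.01 ± 0.15 (adjusted p = 1.15e-12).

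The same group held a pair of calcium genes. Stim encodes the calcium sensor of the endoplasmic reticulum, and SPoCk encodes a calcium pump of the secretory pathway. Stim had 125, 141 and 171 FPKM in yak embryos, against 2.87, 3.50, 3.07, 4.10 and 3.31 FPKM in vir embryos, a difference of 5.05 ± 0.11 (adjusted p = 9.19e-13). The gene span of Stim was 5.75 kb in yak and 168 kb in vir, and the part of this in its difference was not tested. SPoCk had 90.7, 99.3 and 117 FPKM in yak embryos, against 2.31, 2.61, 1.71, 2.07 and 2.18 FPKM in vir embryos, a difference of 5.03 ± 0.11 (adjusted p = 8.68e-13). No overlap was a condition for entering this group of genes. RpS5b, 1 of a pair of genes for a protein of the small ribosomal subunit, had 298, 581 and 951 FPKM in yak embryos, against 6.39, 9.39, 5.94, 10.6 and 8.86 FPKM in vir embryos. Its difference was 5.91 ± 0.22 (adjusted p = 1.00e-10), while its paralog RpS5a went the other way, with a mean of 1179 FPKM in yak and 2924 FPKM in vir (difference -1.32 ± 0.10). Reads that fit both members of such a pair were shared out by estimation in the authors' processing, so values of near copies are uncertain. The remaining genes of this rank, CG34266 and CG30409, averaged 149 FPKM in yak and 3.53 FPKM in vir, and 351 FPKM in yak and 10.4 FPKM in vir.

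The largest excesses in vir included genes for a protease, membrane traffic, glycolysis and lipid synthesis. The gene 26-29-p (CtsK1, 3L:13987334-13989678), which encodes a cysteine protease, had 3.21, 4.77 and 6.14 FPKM in yak embryos, against 1011, 765, 908, 879 and 885 FPKM in vir embryos. All yak values were under 10 and all vir values above 700, with a difference of -7.30 ± 0.14 (adjusted p = 6.24e-13). In the other species it was as low as in yak, at 4.94 FPKM in mel and 3.27 FPKM in pse. Vps33B, a gene of endosomal membrane fusion (3R:21299237-21301478), had 5.17, 7.62 and 9.22 FPKM in yak embryos, against 966, 969, 804, 981 and 803 FPKM in vir embryos, a difference of -6.77 ± 0.14 (adjusted p = 8.65e-13). CG5508 (mino), which encodes an acyltransferase of glycerolipid synthesis, had 4.71, 8.25 and 8.72 FPKM in yak embryos, against 676, 645, 683, 628 and 646 FPKM in vir embryos, a difference of -6.29 ± 0.13 (adjusted p = 8.65e-13). Both genes were also low in mel and pse, at 7.63 and 8.77 FPKM for Vps33B and at 45.3 and 13.2 FPKM for CG5508. CG2789 (Tspo), for a protein of the outer mitochondrial membrane, had 1.97, 4.40 and 6.398 FPKM in yak embryos, against 457, 534, 427, 510.4 and 388 FPKM in vir embryos, and 3.53 FPKM in mel but 142 FPKM in pse. Its difference was -6.59 ± 0.24 (adjusted p = 8.39e-11).

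The gene plu encodes a subunit of the PNG kinase, which starts the translation of maternal RNA when the egg is activated. It had 3.42, 12.3 and 16.7 FPKM in yak embryos, against 651, 700.1, 579.5, 705 and 538 FPKM in vir embryos, a difference of -5.95 ± 0.33 (adjusted p = 3.65e-09). The difference of CG14036 was -5.73 ± 0.22, with a mean of 3.33 FPKM in yak and 227 FPKM in vir. This gene lies at 2L:5054578-5055004, next to the histone variant gene His3.3A at 2L:5055057-5055995, which was also higher in vir, and the library kit did not keep the strand of the RNA. The part of this neighbor in the values of CG14036 was not tested. CG7255 averaged 1.94 FPKM in yak and 137 FPKM in vir (difference -5.62 ± 0.24). Among genes with a mean over the 11 embryos of at least 100 FPKM, CG12947 and Spat (Agxt), which encodes an aminotransferase, had still larger differences, from values near 0 in yak. CG12947 had 0, 0.202 and 0.504 FPKM in yak embryos, against 687, 739, 570.0, 813 and 588 FPKM in vir embryos, and Spat had 0.0585, 0.303 and 0.517 FPKM in yak embryos, against 324, 349.6, 328, 328 and 357 FPKM in vir embryos. All yak values of both genes were under 1 FPKM, and the differences were -9.12 ± 0.13 and -8.04 ± 0.11 (adjusted p = 4.69e-14 and 4.69e-14).

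**Figure D1:**
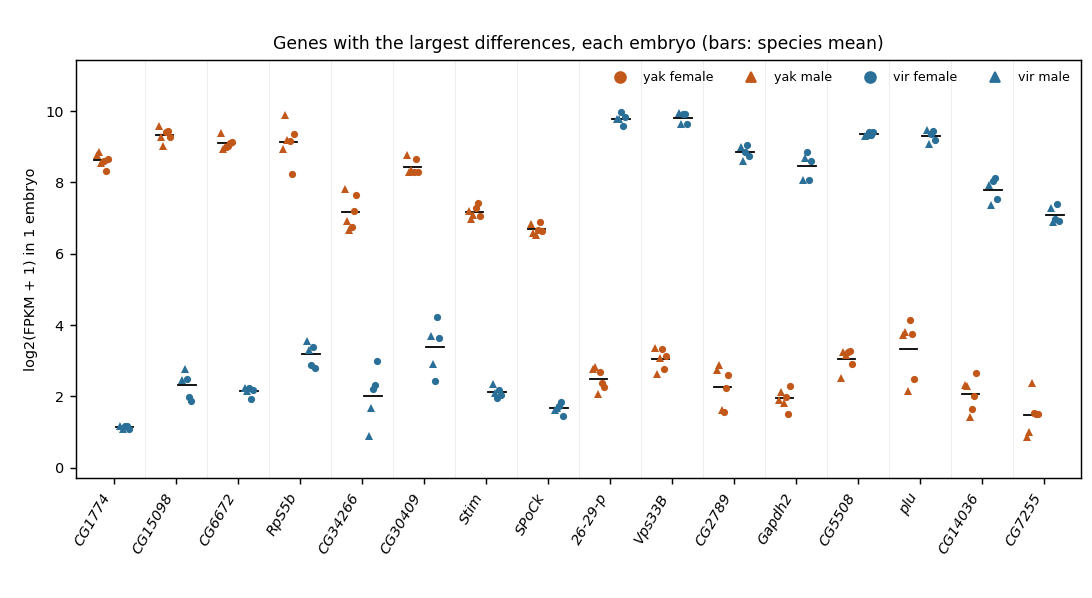
Values in each of 11 embryos for the 16 genes with the largest differences among genes expressed in all 4 groups, in log2(FPKM + 1), yak left of vir for each gene, females as circles, males as triangles, and bars at the species means. The 8 genes on the left were higher in yak and the 8 on the right lower in yak. All were picked among called genes without overlap between the species.

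Some genes were at or near 0 in 1 species and clearly expressed in the other. In 21 genes every vir embryo was under 0.1 FPKM and the yak mean was at least 5 FPKM, and in 42 genes every yak embryo was under 0.1 FPKM and the vir mean was at least 5 FPKM. An entry of 0 can also stand for a gene model to which no reads were assigned, so no fold is given. CG7840 had 139.7, 251 and 299.9 FPKM in yak embryos and was listed at 0 in all 5 vir embryos. CG11523 had 87.8, 106 and 130.2 FPKM in yak embryos and was listed at 0 in all vir embryos, although the vir eggs had 124 and 122 FPKM. CG13217 had 67.6, 75.5 and 95.7 FPKM in yak embryos and 0 in all vir embryos. The serotonin receptor gene 5-HT2 (5-HT2A) had 44.2, 51.3 and 63.8 FPKM in yak embryos, against 0.0208, 0.0296, 0, 0 and 0 FPKM in vir embryos. It was listed at 0 in pse as well and averaged 9.47 FPKM in mel. Gip was listed at 0 in all 6 yak embryos and had 79.3, 102, 89.7, 109.9 and 68.6 FPKM in vir embryos, while the mean of the yak eggs was 17.9 FPKM. CG31345 had 0 in all yak embryos and 43.1, 49.7, 36.2, 57.3 and 50.9 FPKM in vir embryos, and was listed at 0 in mel and pse too. FBgn0031753 (CG13999) had 0 in all yak embryos and 37.97, 45.1, 34.3, 52.01 and 41.03 FPKM in vir embryos. Vkor, the vitamin K epoxide reductase gene, had 0 in all yak embryos and 36.7, 34.3, 32.7, 33.1 and 29.8 FPKM in vir embryos.

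The gene lists that follow were read against the share of all tested genes that was called, 22.3% higher and 27.4% lower in yak. In these whole embryos fewer cells of a type and less RNA per cell cannot be told apart. Most gap genes, which divide the embryo into broad regions, were not called: 2 of 9 were called higher in yak and 1 lower, with a median difference of -0.29. In males alone the median was 0.13 and none was called lower. In a test against a 2-fold difference 0 of the 9 were called. Kr, the central gap gene, had 89.1, 114 and 176 FPKM in yak embryos, against 58.5, 64.8, 47.7, 62.5 and 55.9 FPKM in vir embryos, with no overlap and a difference of 1.07 ± 0.16 (adjusted p = 3.27e-05). Without the third yak male the difference of Kr was 0.97, which is short of the 2-fold limit, and the count of gap genes higher in yak was then 1. The head gene slp1 had 82.4, 120.2 and 148 FPKM in yak embryos, against 55.1, 48.1, 68.5, 43.2 and 52.8 FPKM in vir embryos, a difference of 1.15 ± 0.12 (adjusted p = 1.78e-06). The terminal gap gene hkb had 7.35, 12.4 and 23.1 FPKM in yak embryos, against 38.3, 30.4, 37.6, 23.5 and 41.2 FPKM in vir embryos, a difference of -1.35 ± 0.27 (adjusted p = 0.00045). Every yak value of hkb was below every vir value, and in males alone hkb was not called. The trunk gene kni had 35.1 to 57.9 FPKM in yak and 55.2 to 71.9 FPKM in vir, and the other terminal gene tll 10 to 21.8 and 13.96 to 29.2 FPKM (differences -0.45 and -0.29, not called). The head gap genes oc and ems had 11.3 to 26.3 and 5.387 to 10.53 FPKM in yak, against 17.6 to 26.0 and 7.89 to 11.1 FPKM in vir, and D (Dichaete), a Sox factor of the trunk, had 30.4 to 54.4 FPKM in yak and 53.7 to 87.6 FPKM in vir (difference -0.74, not called). CG13826 (cnc), a head gene, had 4.62 to 23.2 FPKM in yak and 6.63 to 9.89 FPKM in vir.

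Pair-rule genes are mostly expressed in stripes of alternate segments. Of 10 genes of this list, which includes the maternal cofactor gene ftz-f1, 2 were lower in yak and 1 was called higher, with a median difference of 0.03. The primary pair-rule gene eve (2R:5866745-5868284) had 3.29, 10.9 and 19.5 FPKM in yak embryos, against 45.8, 51.1, 47.5, 41.8 and 52.8 FPKM in vir embryos. The highest yak embryo was below the lowest vir embryo, and the difference was -2.23 ± 0.29 (adjusted p = 1.13e-05). Means of eve were 48.7 FPKM in mel and 68.3 FPKM in pse, so that yak was the low species of the 4. The nuclear receptor gene ftz-f1, whose maternal product works with Ftz, had 0.226, 0.365 and 0.569 FPKM in yak embryos, against 2.27, 5.388, 3.03, 5.34 and 2.87 FPKM in vir embryos, a difference of -1.73 ± 0.19 (adjusted p = 1.91e-06). These values were low, and the call of ftz-f1 was lost with a pseudocount of 10 (difference -0.40). In eggs ftz-f1 averaged 33.7 FPKM in yak and 63.6 FPKM in vir. slp2, the neighbor of slp1, had 15.1, 15.9 and 18.1 FPKM in yak embryos, against 7.88, 7.62, 8.37, 7.06 and 7.44 FPKM in vir embryos. Its difference of 1.00 ± 0.09 was at the 2-fold limit and was 0.97 to 0.99 without yak female 2, yak male 1, vir female 2 or vir male 2, so that the count of pair-rule genes higher in yak was then 0. The remaining 7 pair-rule genes differed by less than 2-fold. odd had 94.2 to 115 FPKM in yak and 58.7 to 73.4 FPKM in vir, and prd 76.8 to 115 and 59.2 to 74.1 FPKM, both without overlap and at adjusted p = 7.77e-06 and 0.000368. ftz had 106 to 171 FPKM in yak and 101 to 142 FPKM in vir, run 39.2 to 64.2 and 31.9 to 54.6 FPKM, h (hry) 40.6 to 63.4 and 50.1 to 70.8 FPKM, opa 75.3 to 150.1 and 106 to 134 FPKM, and Ten-m 23.1 to 36.6 and 25.9 to 37.6 FPKM. The ranges of these 5 genes overlapped between the species.

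**Figure D2:**
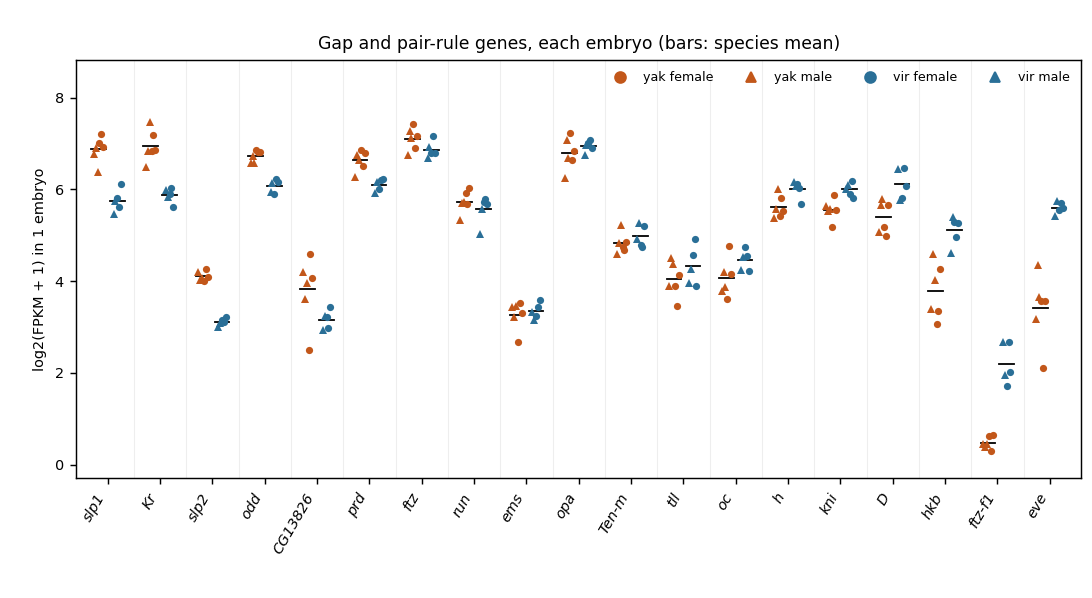
Values of the 9 gap and 10 pair-rule genes in each of 11 embryos, in log2(FPKM + 1), ordered by the difference yak minus vir, yak left of vir, females as circles, males as triangles, bars at the species means. Most genes overlapped or differed by less than 2-fold, and eve and ftz-f1 at the right had every yak embryo below every vir embryo.

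Segment polarity genes set the borders of segments once the stripes are laid down. Of 12 in the test 3 were higher in yak and 1 lower, with a median difference of 0.56. The Pax gene gsb had 12.4, 17.8 and 28.0 FPKM in yak embryos, against 2.81, 2.12, 6.80, 1.88 and 2.35 FPKM in vir embryos, a difference of 2.36 ± 0.22 (adjusted p = 4.79e-07). Its value in the third vir female was apart from the other vir embryos and still below every yak embryo. The T-box gene mid had 10.95, 18.9 and 24.6 FPKM in yak embryos, against 5.44, 5.393, 12.1, 2.58 and 7.63 FPKM in vir embryos, where the third vir female reached into the yak range (difference 1.48 ± 0.27, adjusted p = 0.000207). The kinase gene fu of the Hedgehog pathway was lower in yak, at 10.3, 15.1 and 23.3 FPKM, against 49.98, 55.5, 51.4, 33.7 and 32.9 FPKM in vir embryos (difference -1.42 ± 0.09, adjusted p = 1.83e-08). The selector gene en was the other gene higher in yak, at a mean of 6.46 FPKM in yak and 2.60 FPKM in vir (difference 1.10 ± 0.29), and the signals wg and hh averaged 23.0 and 8.88 FPKM in yak and 13.6 and 5.61 FPKM in vir, which is under 2-fold.

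Homeotic genes give segments their identity. The list had 4 tested genes, the homeotic genes Antp and abd-A and their partners tsh and hth. Of the 4, 3 were higher in yak and 0 lower, with a median difference of 1.61, the highest of 35 lists. With a pseudocount of 10 this median was 0.91. Antp had 11.2, 16.5 and 30.8 FPKM in yak embryos, against 2.53, 3.99, 3.12, 2.67 and 4.58 FPKM in vir embryos, and tsh, a trunk gene that works with them, had 39.6, 47.4 and 57.6 FPKM in yak embryos, against 10.7, 10.7, 15.7, 9.09 and 14.7 FPKM in vir embryos. abd-A had 10.3, 19.8 and 26.0 FPKM in yak embryos, against 5.89, 7.90, 6.45, 7.53 and 7.59 FPKM in vir embryos. All 3 were without overlap, with differences of 2.09 ± 0.22, 1.91 ± 0.15 and 1.30 ± 0.20 (adjusted p = 1.57e-06, 8.40e-08 and 4.80e-05). The call of abd-A was lost with a pseudocount of 10 (0.77) and in a test against a 2-fold difference. The cofactor gene hth averaged 71.8 FPKM in yak and 95.5 FPKM in vir and was not called.

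On the dorsal side the differences ran both ways. BMP ligands Dpp and Scw act through the factors Mad and Med, and their targets include pnr, the Doc genes, tup and zen in the dorsal ectoderm and amnioserosa. Of 25 genes of this list 6 were higher in yak and 5 lower, and without the third vir female 4 were higher and 7 lower. The GATA gene pnr had 23.2, 42.5 and 56.4 FPKM in yak embryos, against 3.77, 7.12, 0.0421, 3.70 and 5.38 FPKM in vir embryos, and the T-box gene Doc2 had 27.6, 35.05 and 42.5 FPKM in yak embryos, against 6.34, 7.51, 0.655, 7.89 and 3.66 FPKM in vir embryos. Yak embryos were above all vir embryos for both, with differences of 3.26 ± 0.45 and 2.73 ± 0.37 (adjusted p = 2.26e-05 and 1.76e-05) and of 2.79 ± 0.27 and 2.33 ± 0.19 without the third vir female (adjusted p = 1.38e-06 and 3.59e-07). peb, a zinc finger gene of the amnioserosa, was higher in yak (1.66 ± 0.32), also without that embryo (adjusted p = 0.00122). Ance, which encodes a relative of angiotensin-converting enzyme, averaged 30.5 FPKM in yak and 12.9 FPKM in vir (difference 1.14 ± 0.15), and 1.17 ± 0.16 without that embryo. ush and shn, a partner of Pnr and a nuclear factor of the Dpp pathway, were 2-fold higher in yak with that embryo (differences 1.06 ± 0.20 and 1.15 ± 0.301) and 0.86 ± 0.13 and 0.84 ± 0.18 without it, which is short of the limit. zen, a homeobox gene of the amnioserosa, had 16.6, 26.6 and 39.8 FPKM in yak embryos, against 65.5, 63.2, 0.981, 65.5 and 44.4 FPKM in vir embryos. With all embryos its difference was -0.21 ± 0.77 (adjusted p = 0.801), and without the third vir female it was -1.12 ± 0.24 (adjusted p = 0.00122), lower in yak.

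Among the BMP signalling genes themselves, dpp had 8.99, 12.01 and 13.3 FPKM in yak embryos, against 14.4, 15.3, 4.65, 13.3 and 13.2 FPKM in vir embryos, and was not called with or without that embryo. The second ligand gene scw (2L:19699626-19701035) had 0, 0.232 and 0.286 FPKM in yak embryos, against 15.3, 14.5, 15.4, 13.9 and 13.6 FPKM in vir embryos, a difference of -3.70 ± 0.11 (adjusted p = 9.76e-12). Its means were 19.3 FPKM in mel and 2.23 FPKM in pse, so that vir and mel were high and yak near 0. The inhibitor gene Dad had 1.08, 1.28 and 3.07 FPKM in yak embryos, against 19.9, 20.9, 21.0, 21.2 and 29.2 FPKM in vir embryos, a difference of -3.20 ± 0.18 (adjusted p = 5.31e-09), with 0.764 FPKM in mel and 2.13 FPKM in pse. For scw and Dad the groups were far apart and the third vir female lay among the other vir embryos or close to them. The signal transducers Mad and Med were lower in yak, at means of 27.0 FPKM in yak and 55.8 FPKM in vir, and 7.33 FPKM in yak and 15.8 FPKM in vir (differences -1.03 ± 0.14 and -1.05 ± 0.14). The antagonist sog averaged 75.5 FPKM in yak and 90.4 FPKM in vir and did not pass the test (difference -0.17 ± 0.24). Without the third vir female the vir mean of sog was 72.6 FPKM and the difference 0.03 ± 0.20. The gene cv, for a secreted modulator of BMP, was lower in yak at 13.1 FPKM in yak and 40.3 FPKM in vir (difference -1.53 ± 0.12). Without that embryo the differences were -3.68 ± 0.12 for scw, -3.22 ± 0.20 for Dad, -1.07 ± 0.15 for Mad, -1.06 ± 0.16 for Med and -1.502 ± 0.14 for cv, each still called, and -0.26 ± 0.11 for dpp. egr, the TNF ligand gene, was called lower in yak only without the third vir female (-1.06 ± 0.12, against -0.87 ± 0.20 with it).

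**Figure D3:**
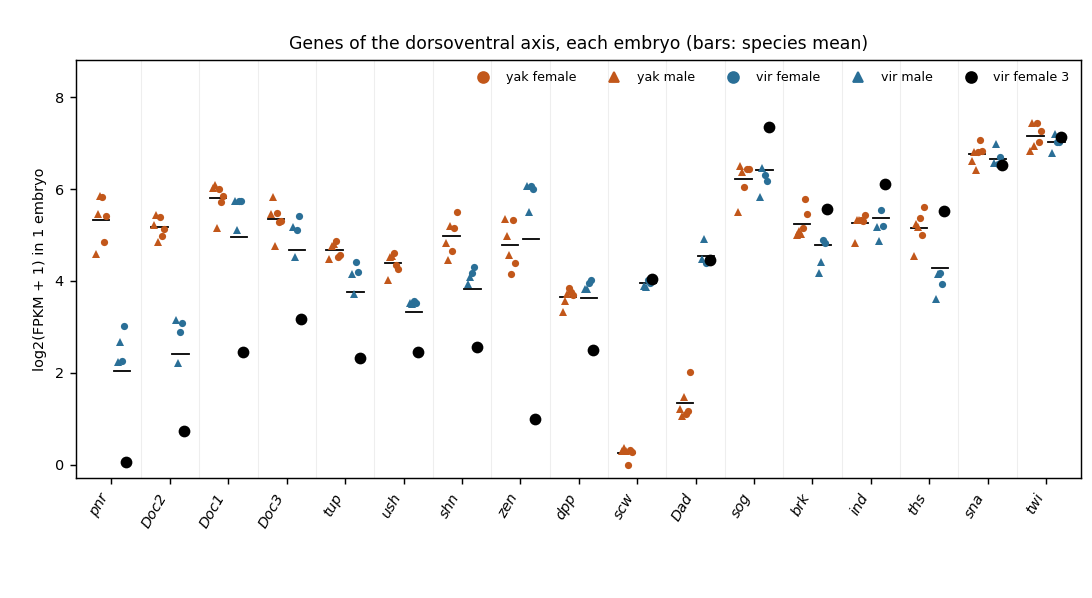
Values of 17 genes of the dorsoventral axis in each of 11 embryos, in log2(FPKM + 1), yak left of vir, females as circles, males as triangles, bars at the species means, and the third vir female in black. The black points lie below the other vir embryos for genes of the dorsal side (pnr to dpp) and above them for sog, brk, ind and ths, and with or near them for scw, Dad, sna and twi.

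Genes of the mesoderm and neurectoderm lie downstream of the ventral Dorsal gradient. Of 23 genes 10 (11 without the third vir female) were higher in yak and 1 was lower, with a median of 0.81. The ventral regulators twi and sna overlapped, at 113 to 173 and 84.3 to 134 FPKM in yak and 109.5 to 145 and 90.6 to 125 FPKM in vir (differences 0.14 ± 0.12 and 0.10 ± 0.12). The FGF ligand gene pyr had 27.2, 29.7 and 41.5 FPKM in yak embryos, against 1.496, 1.46, 2.44, 0.926 and 1.21 FPKM in vir embryos, a difference of 3.78 ± 0.14 (adjusted p = 9.18e-11). Its receptor gene htl averaged 80.1 FPKM in yak and 20.3 FPKM in vir (difference 1.99 ± 0.23), and the other ligand gene of that receptor, ths, averaged 35.6 FPKM in yak and 20.7 FPKM in vir (difference 0.94 ± 0.27, and 1.20 ± 0.18 without the third vir female, adjusted p = 5.89e-05). wntD, a feedback inhibitor of Dorsal, had 18.4, 64.7 and 85.8 FPKM in yak embryos, against 4.36, 7.97, 8.67, 4.92 and 7.23 FPKM in vir embryos, a difference of 2.92 ± 0.29 (adjusted p = 1.02e-06). The mesoderm factor genes zfh1 and tin averaged 10.1 and 11.4 FPKM in yak and 1.16 and 1.61 FPKM in vir (differences 2.35 ± 0.21 and 2.24 ± 0.21). For pyr, htl, wntD, zfh1 and tin no yak embryo overlapped a vir embryo. sim, the regulator of the ventral midline, and argos, an EGF antagonist, were also higher in yak (differences 1.77 ± 0.26 and 2.04 ± 0.19), and NetB, for a guidance cue, was lower (-1.47 ± 0.26).

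In the maternal pathways that set up these axes, some components were called and others were not. Of 9 Toll pathway genes 2 were higher and 2 lower in yak. The receptor gene Tl had 96.1, 145 and 255 FPKM in yak embryos, against 55.4, 43.2, 39.0, 45.4 and 43.0 FPKM in vir embryos, and wek, for an adaptor of Toll, had 59.0, 66.4 and 71.7 FPKM in yak embryos, against 12.2, 13.8, 12.8, 13.7 and 12.01 FPKM in vir embryos (differences 1.80 ± 0.23 and 2.26 ± 0.08, adjusted p = 1.23e-05 and 9.61e-11). Myd88, a second adaptor, was lower, at 1.69, 3.21 and 5.48 FPKM in yak embryos, against 21.2, 24.1, 15.4, 24.2 and 13.99 FPKM in vir embryos (difference -2.26 ± 0.22, adjusted p = 7.84e-07). None of the 3 overlapped, and the inhibitor gene cact averaged 503 FPKM in yak and 334 FPKM in vir (difference 0.60 ± 0.08, not called). Of 9 genes of terminal signalling 3 were lower in yak, all by little more than 2-fold, and 0 were higher (1 without the third vir male). The adaptor gene drk had 193, 211 and 217 FPKM in yak embryos, against 420.1, 479.8, 404, 489 and 422 FPKM in vir embryos, the kinase gene phl (Raf) 12.6, 22.9 and 32.8 FPKM, against 55, 56.8, 60.2, 37.1 and 43.1 FPKM in vir embryos, and the next kinase gene Dsor1 20.7, 28.2 and 42.5 FPKM, against 74.6, 81.5, 96.0, 46.1 and 42.2 FPKM in vir embryos. Their differences were -1.08 ± 0.08, -1.11 ± 0.12 and -1.07 ± 0.09. The calls of drk and Dsor1 were lost with the median normalization or with none (-0.97 to -0.99), and that of phl in females alone (-0.88). All 3 calls were lost in a test against a 2-fold difference. In both X-linked kinase genes the males of a species were lower than its females. Dsor1 had 34.7 to 42.5 FPKM in yak females and 20.7 to 21.7 FPKM in yak males, against 74.6 to 96.0 FPKM in vir females and 42.2 to 46.1 FPKM in vir males, so that the species did not overlap within a sex.

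Notch signalling and the proneural genes, which select nerve precursors, held 12 of 31 genes higher in yak and 2 lower. The count lower in yak was 4 without the third vir female and 1 without the first vir female or the third yak male. Brd, a gene for an inhibitor of Neuralized, had 241, 264 and 334 FPKM in yak embryos, against 44.7, 31.1, 37.2, 48.3 and 40.1 FPKM in vir embryos, a difference of 2.76 ± 0.13 (adjusted p = 6.92e-10). The proneural genes ac, sc and l(1)sc averaged 10.51, 9.54 and 90.6 FPKM in yak and 1.19, 1.80 and 25.8 FPKM in vir (differences 2.39 ± 0.25, 1.86 ± 0.25 and 1.82 ± 0.12), without overlap. The ligand gene Dl averaged 184 FPKM in yak and 76.0 FPKM in vir (difference 1.33 ± 0.20) and the ligase gene neur 285 FPKM in yak and 113 FPKM in vir (difference 1.34 ± 0.11). Subunits of gamma-secretase, which cuts the receptor, were higher in yak, pen-2 at 147 FPKM in yak and 50.6 FPKM in vir and nct at 227 FPKM in yak and 81.6 FPKM in vir (differences 1.51 ± 0.13 and 1.46 ± 0.09). The receptor gene N itself averaged 43.7 FPKM in yak and 38.1 FPKM in vir (difference 0.19 ± 0.19, not called), and H, for an antagonist of the pathway, was lower in yak at 6.65 FPKM in yak and 16.6 FPKM in vir (difference -1.23 ± 0.15).

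Sex determination reads the dose of X-linked counting genes. Of 20 genes of sex determination and dosage compensation 6 were higher in yak and 2 lower. The counting gene sisA had 85.5, 133 and 176 FPKM in yak embryos, against 38.6, 60.6, 37.3, 46.2 and 24.6 FPKM in vir embryos, a difference of 1.72 ± 0.19 (adjusted p = 2.46e-06), and the repressor gene dpn, which acts in the other direction, had 68.2, 88.8 and 95.6 FPKM in yak embryos, against 26.3, 37.2, 26.1, 24.9 and 27.0 FPKM in vir embryos (1.597 ± 0.11, adjusted p = 3.54e-08). Neither gene overlapped between the species. In the JAK/STAT pathway, which helps to activate Sxl, the receptor gene dome was higher in yak at 85.9 FPKM in yak and 37.1 FPKM in vir (difference 1.26 ± 0.11) and the factor Stat92E lower at 74.3 FPKM in yak and 189 FPKM in vir (difference -1.35 ± 0.11). The ligand gene os (upd1) had a difference of 1.01 ± 0.18, which was 0.91 to 1.00 and short of the limit without yak female 2, yak female 3, yak male 1 or vir male 2. The target Sxl itself averaged 297 FPKM in yak and 269 FPKM in vir (difference 0.41 ± 0.12, not called). msl-2, the limiting part of the male dosage compensation complex, had 6.72 to 7.21 FPKM in yak females and 22.8 to 47.7 FPKM in yak males, and 22.6 to 29.7 FPKM in vir females and 67.5 to 87.8 FPKM in vir males (species difference -1.51 ± 0.19, adjusted p = 7.27e-06). Within each sex the yak embryos were below the vir embryos. In eggs msl-2 averaged 0.108 FPKM in yak and 26.5 FPKM in vir, and the part of maternal RNA in the embryo difference was not tested. The species difference was also compared between the sexes: 0 of 5395 genes (0%) differed at adjusted p under 0.05 in limma, and 239 at an unadjusted p under 0.05. The count was 4 without the first vir female and 1 without the second vir male.

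Among germ plasm genes 7 of 20 were lower in yak embryos and 2 higher (1 without the third yak male), with a median of -0.30. egl, which links RNA to the dynein motor, had 0.382, 0.477 and 0.559 FPKM in yak embryos, against 12.8, 14.4, 16.3, 13.5 and 14.8 FPKM in vir embryos, a difference of -3.38 ± 0.10 (adjusted p = 1.61e-11). The Argonaute gene piwi had 0.805, 2.29 and 6.14 FPKM in yak embryos, against 22.4, 25.9, 17.2, 22.9 and 20.6 FPKM in vir embryos, a difference of -2.72 ± 0.31 (adjusted p = 3.69e-06). The translational repressor gene pum had 0.409, 0.794 and 1.66 FPKM in yak embryos, against 7.26, 9.97, 4.43, 11.2 and 6.26 FPKM in vir embryos, a difference of -2.21 ± 0.21 (adjusted p = 5.80e-07). No embryo overlapped for these 3 genes, and all 3 were present in eggs of both species: the mean in yak and vir eggs was 32.5 and 34.9 FPKM for egl, 183 and 64.1 FPKM for piwi, and 38.7 and 77.7 FPKM for pum. osk, which starts germ plasm assembly, averaged 0.699 FPKM in yak and 6.42 FPKM in vir (difference -1.90 ± 0.35), while nos averaged 11.99 FPKM in yak and 11.4 FPKM in vir with ranges of 0.219 to 29.4 and 4.75 to 17.8 FPKM that overlapped. tud and stau were the 2 higher in yak (differences 1.14 ± 0.13 and 1.08 ± 0.12).

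Of 15 genes of the piRNA pathway, which silences transposons, 3 were higher and 2 lower in yak. del, a factor of piRNA cluster transcription, had 26.3, 33.6 and 36.5 FPKM in yak embryos, against 0.984, 1.14, 0.722, 0.713 and 1.37 FPKM in vir embryos, and the helicase gene spn-E had 49.4, 63.6 and 78.9 FPKM in yak embryos, against 5.63, 8.99, 8.33, 7.44 and 11.8 FPKM in vir embryos (differences 4.05 ± 0.14 and 2.80 ± 0.17, adjusted p = 4.16e-11 and 6.87e-09). Both were without overlap. In mel and pse del was also low, at 1.38 and 3.22 FPKM.

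Of 25 genes of maternal RNA clearance, translation control and egg activation 9 were lower in yak (8 without the third vir female) and 3 higher. Apart from plu the genes lower in yak included some of messenger RNA decay. Edc3, a factor of decapping, had 2.42, 3.02 and 4.25 FPKM in yak embryos, against 32.5, 29.5, 26.9, 29.7 and 26.0 FPKM in vir embryos, and sra, a calcineurin regulator needed at egg activation, had 7.06, 8.06 and 10 FPKM in yak embryos, against 53.2, 57.3, 50.3, 52.7 and 52.1 FPKM in vir embryos. Their differences were -2.87 ± 0.13 and -2.53 ± 0.10 (adjusted p = 6.51e-10 and 1.88e-10), without overlap. The deadenylase genes Pop2 and twin averaged 35.3 and 69.6 FPKM in yak and 181 and 245 FPKM in vir (differences -2.34 ± 0.09 and -1.81 ± 0.09). smg, which marks maternal RNA for decay, averaged 33.5 FPKM in yak and 37.7 FPKM in vir and was not called (difference -0.19 ± 0.17), and gnu, a second subunit of the PNG kinase, went against plu with 12.5 FPKM in yak and 3.71 FPKM in vir (difference 1.48 ± 0.21). Of 8 genes for factors of zygotic genome activation only sc and Stat92E were called, and vfl (Zelda), the pioneer factor of the early genome, averaged 65.0 FPKM in yak and 68.6 FPKM in vir (difference -0.08 ± 0.16).

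Cellularization genes split, with 6 of 25 higher and 5 lower in yak and a median that changed sign between normalizations (-0.06 to 0.13). The gene slam, which organizes the membrane front, had 12.7, 33.2 and 87.9 FPKM in yak embryos, against 239, 263, 172, 257 and 237 FPKM in vir embryos, and bnk, which times the closing of the actin rings, had 1.88, 6.79 and 11.3 FPKM in yak embryos, against 53.0, 55.6, 48.1, 52.7 and 33.5 FPKM in vir embryos. The ranges did not overlap, and the differences were -2.71 ± 0.34 and -2.77 ± 0.302 (adjusted p = 9.16e-06 and 2.27e-06). In eggs bnk was at 0 in both species, and slam had 47.2 and 45.9 FPKM in yak eggs and 65.1 and 64.8 FPKM in vir eggs. The early zygotic gene nullo was low in both and higher in yak, at 2.73 FPKM in yak and 0.228 FPKM in vir (difference 1.59 ± 0.17). The dynamin gene shi and the junction gene cno averaged 140.2 and 156 FPKM in yak and 29.8 and 38.3 FPKM in vir (differences 2.21 ± 0.09 and 1.98 ± 0.14). The unconventional myosin gene Myo10A had 23.3, 41.4 and 58.3 FPKM in yak embryos and at most 0.0366 FPKM in any vir embryo, with 0.493 FPKM in mel and 1.74 FPKM in pse.

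Of 27 genes of gastrulation and the actin cortex 8 were lower in yak and 4 higher, with a median of -0.51. Myosin heavy and light chain genes zip and sqh averaged 168 and 214 FPKM in yak and 125 and 219 FPKM in vir and were not called, while the myosin kinase gene rok was lower in yak at 14.04 FPKM in yak and 50.3 FPKM in vir (difference -1.74 ± 0.11). cta, for the G protein of the Fog pathway, had 57.8, 76.0 and 91.6 FPKM in yak embryos, against 11.01, 16.3, 12.6, 10.9 and 13.2 FPKM in vir embryos, and the tropomyosin gene Tm1 had 577, 583 and 631 FPKM in yak embryos, against 174, 179, 156, 192 and 141 FPKM in vir embryos (differences 2.44 ± 0.14 and 1.82 ± 0.08, adjusted p = 6.13e-09 and 7.44e-10). Act87E had 0.2998, 1.16 and 2.60 FPKM in yak embryos, against 32.2, 31.2, 13.9, 36.98 and 34.0 FPKM in vir embryos (difference -3.82 ± 0.29). Actin genes are near copies and their values are uncertain. Among 24 polarity and adhesion genes 7 were higher and 4 lower. The scaffold gene veli had 11.7, 15.4 and 17.3 FPKM in yak embryos, against 96.6, 122, 96.2, 121 and 74.9 FPKM in vir embryos, and the integrin gene mys 20.6, 23.6 and 28.3 FPKM, against 85.6, 90.6, 85.8, 120.2 and 133 FPKM in vir embryos (differences -2.67 ± 0.14 and -2.04 ± 0.13). The E-cadherin gene shg averaged 146 FPKM in yak and 212 FPKM in vir and the beta-catenin gene arm 907 FPKM in yak and 658 FPKM in vir, neither of them called.

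Cell cycle genes were higher in yak in 7 of 32 and lower in 3. String is the phosphatase that drives mitosis and Dacapo an inhibitor that ends the cycles. stg averaged 28.5 FPKM in yak and 8.22 FPKM in vir and dap 8.45 FPKM in yak and 1.88 FPKM in vir (differences 1.67 ± 0.15 and 1.88 ± 0.303), both higher in yak without overlap, as was twe, the second phosphatase gene of this kind, at 3.62 FPKM in yak and 0.406 FPKM in vir (difference 1.73 ± 0.19). Cdk4 had 15.9, 19.5 and 23.7 FPKM in yak embryos, against 1.67, 2.01, 2.01, 1.75 and 2.50 FPKM in vir embryos (difference 2.78 ± 0.13, adjusted p = 1.06e-09), and the mitotic kinase gene polo averaged 595 FPKM in yak and 200.3 FPKM in vir (difference 1.57 ± 0.08). Replication genes were split within 1 complex. Of 19 genes 3 were higher and 3 lower, and within the MCM helicase Mcm6 was higher in yak at 84.6 FPKM in yak and 38.2 FPKM in vir (difference 1.13 ± 0.15) while Mcm3 had 25.8, 38 and 47.7 FPKM in yak embryos, against 98.7, 107, 108, 111 and 150.0 FPKM in vir embryos (difference -1.63 ± 0.16). The loading factor gene Cdc6 had 202, 228 and 245 FPKM in yak embryos, against 92.7, 86.7, 81.5, 93.4 and 87.6 FPKM in vir embryos, and geminin, an inhibitor of replication licensing, 39.6, 52.8 and 67.7 FPKM, against 149.9, 172, 116, 135 and 98.05 FPKM in vir embryos (differences 1.34 ± 0.07 and -1.28 ± 0.17).

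Spindle and motor genes followed no common direction. Of 39 centrosome and spindle genes 5 were higher and 9 lower. The maternal alpha-tubulin gene alphaTub67C had 5.18, 10.99 and 11.6 FPKM in yak embryos, against 216, 253, 259, 222 and 223 FPKM in vir embryos (difference -4.44 ± 0.16), and betaTub97EF was at most 0.129 FPKM in yak embryos, against 24.1, 13.8, 32.9, 19.2 and 26.8 FPKM in vir embryos. Tubulin genes are near copies and uncertain. Within the augmin complex, which branches spindle microtubules, dgt4 had 114, 145 and 186 FPKM in yak embryos, against 23.9, 26.7, 18.5, 13.8 and 9.34 FPKM in vir embryos (difference 3.01 ± 0.21), dgt5 was higher in yak as well (1.59 ± 0.09) and dgt6 lower (-1.89 ± 0.14). Of 17 kinesin motor genes 3 were higher and 5 lower, among them Klp68D with 0.935, 1.61 and 2.28 FPKM in yak embryos, against 17.0, 17.7, 13.8, 18.1 and 14.1 FPKM in vir embryos (difference -2.78 ± 0.15). The light chain gene Klc and the heavy chain gene Khc of conventional kinesin were both lower in yak (differences -1.91 ± 0.12 and -1.57 ± 0.10), as was the dynein heavy chain gene Dhc64C at 1.21 FPKM in yak and 7.77 FPKM in vir (difference -1.99 ± 0.12).

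Of genes of histone variants and chromatin assembly 6 of 33 (18.2%) were called, and of Polycomb and trithorax genes 7 of 27 (25.9%), beside 49.7% of all genes. The difference between these shares was not tested. The cohesin gene SMC1 had 13.9, 15.9 and 18.5 FPKM in yak embryos, against 70.8, 71.9, 74.6, 73.1 and 73.8 FPKM in vir embryos (difference -2.09 ± 0.08), and the remodeler gene Iswi 378, 426 and 477 FPKM, against 146, 151, 159, 135 and 146 FPKM in vir embryos (difference 1.53 ± 0.07). His3.3A, 1 of a pair of genes for the same histone, had 329.6, 389.7 and 546 FPKM in yak embryos, against 1674, 1696, 1316, 1656 and 1431 FPKM in vir embryos (difference -1.94 ± 0.14). Pc, the founding gene of its group, was higher in yak at 59.4 FPKM in yak and 20.7 FPKM in vir (difference 1.49 ± 0.09), and E(z), the methyltransferase gene of the same repression system, was lower at 67.4 FPKM in yak and 155 FPKM in vir (difference -1.19 ± 0.07).

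Of 9 glycolytic genes 5 were lower in yak and 1 higher, and the median of -1.53 was the lowest of the 35 lists. Gapdh2 had 1.86, 2.86 and 3.94 FPKM in yak embryos, against 465.7, 268, 384, 269 and 412 FPKM in vir embryos (difference -6.51 ± 0.18, adjusted p = 6.97e-12), and has a near copy, Gapdh1, so that its value is uncertain. Pgi had 18.1, 21.4 and 25.5 FPKM in yak embryos, against 218, 289.6, 291, 274 and 204 FPKM in vir embryos, and Pgk averaged 12.5 FPKM in yak and 133 FPKM in vir (differences -3.51 ± 0.12 and -3.29 ± 0.19). Pfk, for the committed step of the pathway, went the other way, with 36.6, 51.5 and 65.3 FPKM in yak embryos, against 2.07, 3.10, 2.66, 2.24 and 3.16 FPKM in vir embryos (difference 3.77 ± 0.16, adjusted p = 2.72e-10). The aldolase gene Ald averaged 221 FPKM in yak and 187 FPKM in vir and was not called.

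Nucleotide synthesis had 6 of 15 genes higher and 3 lower in yak. pug, of folate metabolism, had 41.8, 44.9 and 50.3 FPKM in yak embryos, against 1.61, 1.97, 2.30, 1.16 and 2.04 FPKM in vir embryos, and ade2 (Pfas), of purine synthesis, had 13.4, 21.6 and 23.0 FPKM in yak embryos, against 0.768, 0.284, 1.32, 0.571 and 0.610 FPKM in vir embryos (differences 4.05 ± 0.12 and 3.63 ± 0.17, adjusted p = 1.98e-11 and 8.90e-10). ade3 of the same pathway was also higher in yak (difference 2.20 ± 0.11). CG3011 (Shmt), which feeds carbon units into the pathway, was lower, at 3.67, 4.81 and 8.18 FPKM in yak embryos, against 74.8, 52.3, 79.2, 33.1 and 64.6 FPKM in vir embryos (difference -3.31 ± 0.23). The median of the list was -0.37 and was 0.40 with the quantile normalization, 0.25 in males alone and 0.15 with a stricter filter. Of 35 genes of oxidative phosphorylation 11 were higher and 5 lower, with a median of 0.66. CG18624 (ND-MNLL), a subunit of complex I, had 117, 174 and 227 FPKM in yak embryos, against 37.05, 27.2, 32.6, 25.9 and 23.3 FPKM in vir embryos, and mtacp1 (ND-ACP), its acyl carrier protein, had 35.2, 48.8 and 59.6 FPKM in yak embryos, against 371, 329, 237, 289.5 and 251 FPKM in vir embryos (differences 2.51 ± 0.16 and -2.62 ± 0.15). Complex I subunits therefore differed in both directions. Of detoxification genes (cytochrome P450, glutathione S-transferase and UGT) 28 of 42 (66.7%) were called, 14 in each direction. Their levels were near the filter, with medians of the gene means of 1.98 FPKM in yak and 1.46 FPKM in vir. With a filter at 10 FPKM 7 were called higher and 6 lower in yak, and with a pseudocount of 10 the counts were 4 and 5. In a test against a 2-fold difference 8 were higher and 9 lower. GstE5 had 27.7, 31.0 and 39.1 FPKM in yak embryos and was listed at 0 in vir embryos, Cyp6d2 was at most 0.0427 FPKM in yak embryos, against 26.8, 24.8, 31.9, 24.8 and 22.8 FPKM in vir embryos, and GstS1 had 4.75, 6.96 and 14.4 FPKM in yak embryos, against 85.6, 114, 85.9, 106 and 95.9 FPKM in vir embryos (difference -3.51 ± 0.21).

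Among the complexes that make and remove proteins, the proteasome had 8 of 18 genes higher in yak and 2 lower, with a median of 0.69. The core subunit genes Prosalpha5 and Pros28.1 (Prosalpha4) had 415, 536 and 679 and 158, 296 and 417 FPKM in yak embryos, against 64.9, 76.3, 57.3, 63.7 and 56.5 and 84.0, 78.4, 72.9, 54.0 and 44.3 FPKM in vir embryos. The regulatory ATPase gene Pros45 (Rpt6) was higher in yak as well (difference 2.20 ± 0.20) and Rpt3, of the same ring, lower at 37.9 FPKM in yak and 140.3 FPKM in vir (difference -1.89 ± 0.20). The differences of the core subunits were 3.04 ± 0.13 and 2.12 ± 0.23. Of 22 heat shock and chaperonin genes 4 were higher and 7 lower. The cytosolic chaperone gene Hsc70-4 averaged 3741 FPKM in yak and 1037 FPKM in vir and Hsp83 218 FPKM in yak and 71.1 FPKM in vir (differences 1.86 ± 0.08 and 1.51 ± 0.25), while the small heat shock gene Hsp23 had 11.6, 16.2 and 20.4 FPKM in yak embryos, against 530.4, 379, 268, 371 and 499 FPKM in vir embryos (difference -4.57 ± 0.18, adjusted p = 1.48e-10). Hsp27 had 1.07, 2.19 and 6.95 FPKM in yak embryos, against 28.9, 37.9, 39.8, 43.4 and 36.7 FPKM in vir embryos (difference -3.34 ± 0.34). Hsp23 averaged 109 FPKM in mel and 2.68 FPKM in pse, and thus differed widely across the 4 species.

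Of cytoplasmic ribosomal protein genes 5 of 58 were higher and 9 lower in yak (24.1% called). The counts moved to 5 lower without the second yak female and to 3 higher without the second vir male or the second vir female. RpL26 had 19.9, 1132 and 2069.8 FPKM in yak embryos, the lowest of them the third male, against 3271, 3421, 3041, 3319 and 2871 FPKM in vir embryos. Its difference of -2.38 ± 0.94 (adjusted p = 0.0325) was no longer called without yak female 2, vir male 2 or vir male 3 (-2.17 to -2.27), and was -1.51 without the third yak male. RpLP0-like had 89.9, 114 and 129.8 FPKM in yak embryos, against 31.2, 31.2, 25.3, 24.4 and 21.4 FPKM in vir embryos (difference 2.08 ± 0.11). Mitochondrial ribosomal protein genes were called in 19 of 36, 9 higher and 10 lower, with mRpL22 at 28.06, 42.7 and 68.6 FPKM in yak embryos, against 6.78, 4.19, 4.88, 2.14 and 3.82 FPKM in vir embryos, and mRpS25 at 9.45, 11.1 and 13.99 FPKM, against 188, 162, 148, 132 and 122 FPKM in vir embryos (differences 3.22 ± 0.16 and -3.56 ± 0.09). Subunits of this ribosome thus differed in opposite directions.

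Of 53 translation factor and tRNA synthetase genes 6 were higher and 8 lower (26.4% called), and the 3 largest differences were of synthetases lower in yak. Aats-lys (LysRS) had 2.32, 3.08 and 4.597 FPKM in yak embryos, against 129, 143, 134, 143 and 117 FPKM in vir embryos (difference -5.01 ± 0.12, adjusted p = 3.05e-12). Aats-gly (GlyRS) and Aats-ala (AlaRS) averaged 1.96 and 26.2 FPKM in yak and 30.6 and 146 FPKM in vir (differences -3.43 ± 0.10 and -2.43 ± 0.09). Splicing factors were called in 9 of 32 genes, 6 of them higher in yak, led by xl6 (x16), a serine and arginine rich factor, at 334, 356 and 378 FPKM in yak embryos, against 65.9, 98.3, 84.3, 71.9 and 84.4 FPKM in vir embryos (difference 2.14 ± 0.10). Nuclear pore and transport genes had 7 of 35 higher and 11 lower. The pore gene Nup62 averaged 94.9 FPKM in yak and 23.9 FPKM in vir (difference 1.94 ± 0.13), and the importin genes Pen and Fs(2)Ket were lower in yak at means of 74.1 and 9.20 FPKM, against 282 and 62.3 FPKM in vir (differences -1.92 ± 0.12 and -2.65 ± 0.09). Genes of the vacuolar ATPase and endosomal sorting were called in 16 of 30, 9 higher and 7 lower. Vha44 had 25.8, 32.8 and 36.9 FPKM in yak embryos, against 2.30, 4.45, 3.06, 3.71 and 3.40 FPKM in vir embryos, and Vha100-2, another pump subunit with several paralogs, had 3.33, 8.06 and 14.4 FPKM in yak embryos, against 103, 117, 105, 134 and 123 FPKM in vir embryos (differences 2.94 ± 0.14 and -3.75 ± 0.26).

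**Figure D4:**
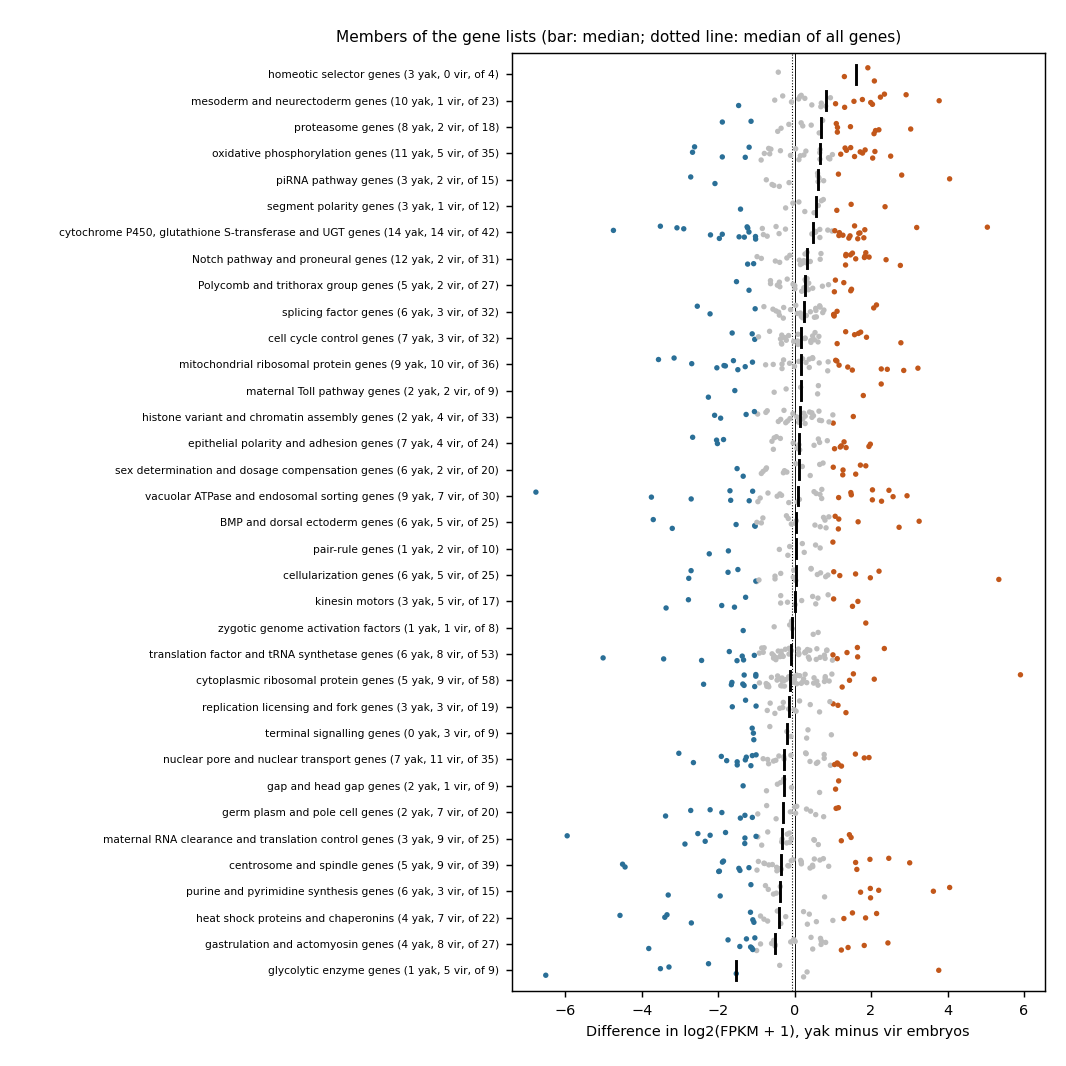
Differences in log2(FPKM + 1), yak minus vir, of the tested members of 35 gene lists, 1 point a gene, orange where called higher in yak, blue where called lower in yak and gray where not called, with a bar at the median of each list and a dotted line at the median of all genes (-0.08). The labels give the counts called higher in yak and higher in vir of the genes tested. Medians ran between 1.61 for the list of 4 homeotic genes and partners and -1.53 for glycolytic genes. Every list but the homeotic and the terminal one held called genes in both directions.

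Unfertilized eggs carry only maternal RNA, so the same difference was taken between 2 yak eggs and 2 vir eggs to see which differences were present before the genome of the embryo was active. Of 5531 genes 1148 (20.8%) were higher in yak eggs and 856 (15.5%) lower, 2004 in all (36.2%). Which side was larger rested on the scaling: 772 genes were higher and 1750 lower in yak eggs with the median normalization, 1030 and 1111 with the TMM normalization, and 1152 and 1206 with the quantile normalization. Of the 1205 genes higher in yak embryos 473 (39.3%) were also called higher in yak eggs, 49 (4.07%) lower and 683 were not called. Of the 1476 genes lower in yak embryos 423 (28.7%) were called lower in yak eggs, 153 (10.4%) higher and 900 were not called. The differences in embryos and eggs had a Spearman correlation of 0.37 across 5395 genes, which are not independent. The embryo difference departed from the egg difference by 2-fold or more at adjusted p under 0.05 in 2727 genes (49.3%), 1101 (19.9%) with the embryo difference more toward yak and 1626 (29.4%) more toward vir. This split rested on the scaling: with the median normalization it was 2042 against 1105, and with the quantile normalization 1382 against 1345.

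Genes of the largest differences were of both kinds. CG1774 had 123 and 141 FPKM in yak eggs and 0 and 0.0365 FPKM in vir eggs, and Vps33B 12.6 and 14.2 FPKM in yak eggs and 420.1 and 402 FPKM in vir eggs, with egg differences of 7.03 ± 0.15 and -4.84 ± 0.22. Vps33B differed more in embryos than in eggs, with a contrast of embryo less egg of -1.93 ± 0.26 (adjusted p = 2.03e-05). By contrast 26-29-p had 681 and 672 FPKM in yak eggs and 765 and 689.7 FPKM in vir eggs, and SPoCk 49.1 and 46.9 FPKM in yak eggs and 40.7 and 51.4 FPKM in vir eggs, with egg differences of -0.10 ± 0.22 and 0.07 ± 0.17. These 2 genes were alike in eggs and more than 32-fold apart in embryos. For Gapdh2 the eggs had 539 and 499 FPKM in yak and 374 and 355 FPKM in vir (egg difference 0.51 ± 0.28, not called), and the contrast of embryo less egg was -7.01 ± 0.32 (adjusted p = 1.13e-09). Adh, the alcohol dehydrogenase gene, had the reverse pattern in the 2 stages. Its embryos had 1.93, 2.99 and 5.16 FPKM in yak, against 189.5, 141, 185, 128 and 192 FPKM in vir, and its eggs 141 and 129 FPKM in yak, against 2.32 and 2.76 FPKM in vir, so that the contrast was -10.59 ± 0.35 (adjusted p = 1.23e-10). The mitochondrial chaperone gene Hsc70-5 was likewise lower in yak embryos, at 2.19, 4.14 and 5.16 FPKM, against 48.9, 53.0, 56.3, 48.7 and 50.9 FPKM in vir embryos, and higher in yak eggs, at 136 and 149 FPKM, against 17.1 and 29.6 FPKM in vir eggs.

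The contrast led in the other direction for 4 genes. G-salpha60A (Galphas), for a G protein subunit, had 72.8 to 103 FPKM in yak embryos and 54.0 to 84.4 FPKM in vir embryos, which overlapped, but 1.82 and 1.46 FPKM in yak eggs and 107 and 95.8 FPKM in vir eggs. The message was thus present in vir eggs and low in yak eggs (contrast 5.66 ± 0.24, adjusted p = 6.09e-10). CG4858 (Nubp2), for an assembly factor of iron-sulfur proteins, had 53.5, 60.5 and 72.7 FPKM in yak embryos, against 7.94, 6.73, 7.91, 12.1 and 12.8 FPKM in vir embryos, and 6.83 and 13.4 FPKM in yak eggs, against 55.5 and 66.5 FPKM in vir eggs. CG1275 had 63.6, 83.7 and 127 FPKM in yak embryos, against 13.4, 16.2, 8.86, 8.61 and 6.94 FPKM in vir embryos, with the reverse order in eggs (55.9 and 46.5 FPKM in yak and 267 and 217 FPKM in vir). CG31855 had 25.04, 27.8 and 31.1 FPKM in yak embryos and a range of 0 to 16.9 FPKM in vir embryos, and a large error accordingly (contrast 5.22 ± 1.29, adjusted p = 0.0027).

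**Figure D5:**
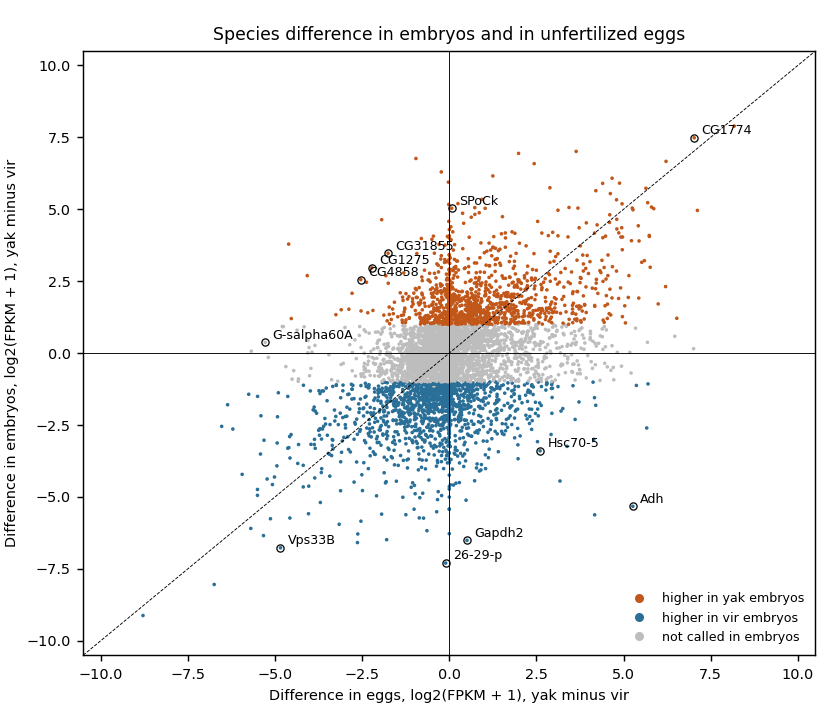
Difference yak minus vir in embryos (vertical) against the same difference in unfertilized eggs (horizontal) in log2(FPKM + 1), 1 point a gene, orange where higher in yak embryos, blue where lower in yak embryos and gray where not called in embryos, with a dashed line of equal differences. CG1774 and Vps33B lie near the corners where embryos and eggs differ in the same direction, 26-29-p, Gapdh2 and SPoCk near the vertical axis, and Adh in the quadrant of opposite signs.

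Genes were also grouped by properties that do not come from these embryos. By the origin of the transcript in mel, taken from an earlier allele-specific study, 47.0% of 3525 maternal genes were called, 45.3% of 752 genes of both origins and 56.6% of 719 zygotic genes. Of 399 genes without an origin class in mel 68.9% were called, 13.8% higher and 55.1% lower in yak, with a median of -1.13. Their levels were low, with a median of the gene means of 0.214 FPKM in yak and 2.47 FPKM in vir embryos. Of 586 such genes 399 entered the test, for which a mean above 1 FPKM in 1 group of either species was enough. With the median gene under 1 FPKM in yak, the excess lower in yak cannot be told apart from an effect of this filter. By Müller element, the chromosome arms shared by the species, 48% to 51.0% were called. In the gene spans of the files, 471 genes had a yak span at least 2-fold shorter than the vir span, of which 59.2% were called and the median was -0.49, 2825 genes had similar spans (47.5% called, median -0.04) and 225 genes had a yak span at least 2-fold longer (53.3% called, median 0.25). Between these, 1227 genes with a shorter yak span had a median of -0.12 (50.5% called) and 647 genes with a longer yak span a median of -0.05 (49.6% called). Named genes with a much shorter span in yak than in vir included Stim, CG15098 (1.14 and 4.03 kb) and pyr (2.41 and 9.46 kb). So did plu (0.639 and 3.14 kb) and CG31345 (2.71 and 17.7 kb), while pum had the longer span in yak (88.7 and 13.3 kb). The part of annotation in these differences was not tested. The mel mean was nearer to yak than to vir in 1933 (72.1%) of the 2681 called genes, and the pse mean in 1487 (55.5%).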

How the data were processed

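RNA of single sexed blastoderm embryos and of unfertilized eggs was sequenced, and reads of each species were assigned to the gene models of that species. Per the study's methods the authors trimmed the reads and aligned them with Bowtie2, and gene levels are sums of transcript levels from eXpress. The authors deposited log10 values of FPKM + 1 in 6 tables that differ in normalization. The table scaled to the 75th percentile was used here, the other 5 served as alternatives, and 96 columns of group means were not used. No read counts were among the values, so depth is unknown.

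Values were turned back to FPKM and tested as log2(FPKM + 1) in limma 3.58.1 (R 4.3.3) with an intensity trend and Benjamini-Hochberg adjustment, two-sided, on 5395 of 5993 genes with a mean above 1 in at least 1 group. The 598 other genes were not tested. Scripts were tested on simulated data. The fit held the 11 embryos with species and sex. Eggs entered a second fit of 6 groups. A further fit compared the species difference between female and male embryos.

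Members and gene lists were chosen with earlier results of these data known. Named genes are, in each direction: the 8 largest differences among called genes with a mean above 1 in all 4 groups and no overlap, the 4 largest with an overall mean of at least 100, the 4 highest among genes under 0.1 in every embryo of 1 species and at a mean of at least 5 in the other, the 4 largest contrasts of embryo less egg, and the leading called members of each list. Other genes named, such as list members that were not called, dorsal genes low in the third vir female and genes alike in eggs, were chosen after their values were seen. Of 35 lists with 834 genes, members in the table and above the filter were counted. Of 5993 gene identifiers 5671 (94.6%) were found in the gene name table, from which current names come, and positions are those of the deposited annotation for mel. Alternatives were the other normalizations, pseudocounts of 0.1 and 10, other filters, other fits, a test against a 2-fold difference, and each library left out.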

Additional observations from a re-analysis of the deposited data

Results flagged for a closer look

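Within the 6 yak or the 5 vir embryos, 314 groups of values of named genes were searched for an embryo far from the others, by the gap to the nearest embryo over the whole range. Chance gives about 1 in 20 such groups, and 23 were found. The third vir female was apart for emc (0.838), Act87E (0.825), slam (0.754), pnr (0.733), h (0.731) and gsb (0.719), and the second vir female for dpn (0.8). The third vir male was apart for Dad (0.826), Mcm3 (0.723) and bnk (0.71). The third yak male was apart for Pros45 (0.743), alphaTub67C (0.734), CG7840 (0.716), Hsc70-5 (0.658) and RpL26 (0.655). The first yak male was apart for Cyp6d2 (1, the 5 others being listed at 0) and dpn (0.642), and the second yak male for CG3011 (0.642). The first yak female was apart for scw (0.758), betaTub97EF (0.683), ade2 (0.658) and ems (0.625), and the second yak female for m2 (E(spl)m2-BFM, 0.761).

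The difference yak minus vir departed between embryos and eggs most for 8 genes, in log2(FPKM + 1) and past the threshold in limma. The contrast of embryo less egg was 5.66 for G-salpha60A, 5.23 for CG1275, 5.22 for CG31855 and 5.06 for CG4858. It was -10.59 for Adh, -7.19 for 26-29-p, -7.01 for Gapdh2 and -6.01 for Hsc70-5.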

How the results depend on the processing

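With a pseudocount of 10, 646 genes were higher and 683 lower in yak embryos, and 703 higher and 462 lower in yak eggs. The contrast of embryo less egg was then called in 634 genes above and 869 below 0. The species difference then differed between the sexes in 2 genes. With the median normalization the contrast was positive in 2042 genes and negative in 1105, and 772 genes were higher and 1750 lower in yak eggs. With the quantile normalization the contrast was positive in 1382 genes and negative in 1345. These scalings moved the median of all genes, which in the contrast was -0.28 to 0.52 over the 6 normalizations (main value -0.12) and in embryos -0.11 to 0.03.

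With each library left out in turn, 1189 to 1214 genes were higher and 1449 to 1487 lower in yak embryos, and 1096 to 1193 higher and 822 to 870 lower in yak eggs. The contrast was positive in 1057 to 1122 and negative in 1565 to 1636 genes. The species difference differed between the sexes in 0 to 4 genes. Deviations of same-numbered yak and vir embryos of a sex had correlations of 0.016 to 0.165 in 5 pairs, with a median of 0.043. In 10 pairs with other numbers they were -0.165 to 0.133, with a median of -0.039. With only 2 vir males the male values mirror each other, so these correlations cannot show whether the numbers pair embryos. The numbers were not taken to pair them. With the replicate number as a block 1209 genes were higher and 1469 lower in yak embryos. In a test against a 2-fold difference in place of 0, 852 were higher and 1086 lower. Of 157 named genes 14 then lost the call, among them Kr, slp1, hkb, slp2, mid, abd-A, drk, phl and Dsor1. The germ plasm list then had 0 genes higher in yak.

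Of 4604 values of 165 results of named genes under the alternatives, 4532 kept their direction and side of the threshold, 61 (24 results) lost the call and 1 gained it. The other 10 were changes of sign in 4 genes that were not called (tll, ems, Ten-m and tra2), and 0 called values reversed. Counting error is not given, since depth is unknown.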

Other observations

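Some genes had the same level in eggs of both species and different levels in embryos. Of 1289 genes with a mean of at least 10 FPKM in eggs of each species and an egg difference under 0.5, 234 were higher and 277 lower in yak embryos (39.6%), and 17 and 34 by at least 8-fold. Over all 5395 tested genes 49.7% were called. These shares come from unlike sets, since the 1289 genes were picked for a small egg difference and at a higher minimum level. Embryo and egg differences were correlated across genes (Spearman 0.37), so a lower share follows in part from the pick. At least 8-fold differences were called in 162 genes higher and 225 lower in yak of the 5395. The difference between these shares was not tested. With the other normalizations 906 to 1403 genes met the rule, and the numbers higher and lower in yak embryos were 282 and 134 with the median table and 209 and 310 with the 95th percentile table. These genes were chosen after their values were seen, and the eggs are the same libraries as in the contrast above.

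Beside 26-29-p and SPoCk, mld, a zinc finger gene of ecdysone synthesis, averaged 1.79 FPKM in yak embryos and 83.5 FPKM in vir embryos, with 33.2 FPKM in yak eggs and 38.5 FPKM in vir eggs. The kinetochore gene rod averaged 0.458 FPKM in yak embryos and 32.4 FPKM in vir embryos, with 27.7 FPKM in yak eggs and 24.1 FPKM in vir eggs. Prestin, for an anion transporter, averaged 0.277 FPKM in yak embryos and 34.6 FPKM in vir embryos, with 53.1 FPKM in yak eggs and 66.4 FPKM in vir eggs. In these 3 genes the yak embryo was far below the yak egg, and the vir embryo was not. CG7407 went the other way, with 55.8 FPKM in yak embryos and 1.04 FPKM in vir embryos, and 31.7 FPKM in yak eggs and 24.1 FPKM in vir eggs.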
